A study of Mus musculus with 8 samples.

Results

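The imprints of H13, Mcts2, Impact and Snrpn were described from every CG that lies in these 4 genes or within 5 kb of them, read in the livers of 8 mice. Of the 1217093 CGs with at least 10 reads in 1 mouse or more, 177 lay in these windows: 109 in that of H13, which also holds the 26 of Mcts2, 29 in that of Impact and 39 in that of Snrpn. Reduced representation bisulfite sequencing (RRBS) was used, in which DNA is cut at CCGG by MspI and unmethylated cytosines are read as thymine after bisulfite treatment, so that the share of reads keeping a cytosine is the methylation level. The mice were 1 female and 1 male each of C57BL/6J (B6), of DBA/2J (DBA), of BXD (a B6 mother and a DBA father) and of DXB (a DBA mother and a B6 father), all 16 weeks old and fasted for 16 h. The authors had assigned reads with a SNP to one of the parental strains, so that in F1 mice they are maternal or paternal.

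At many imprinted loci the copy inherited from 1 parent carries methylation that was set in that parent's germ cells, whereas other imprinted marks arise after fertilization and can be limited to some tissues. Where only 1 copy is methylated, a locus reads near the middle of the scale when both copies are counted together. H13 encodes a signal peptide peptidase, a protease that cuts within membranes. Mcts2 is a retrogene, an intronless copy of a translation factor gene on the X chromosome, and sits within an intron of H13. Impact encodes an inhibitor of the stress kinase GCN2, and Snrpn encodes a small nuclear ribonucleoprotein that takes part in splicing. Mcts2, Impact and Snrpn are known in mice as genes expressed from the paternal copy, with methylation on the maternal copy.

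The libraries held between 200744653 and 845527087 cytosine calls, with a mean of 40 to 77 reads for each cytosine of a CG and read class. Tags for B6 made up 99.7% of sorted autosomal calls in the B6 female, less than 1% in both DBA mice and 52.3% to 53.4% in the F1 mice. The library labelled B6 male was at 83.9%, so the results that include it are given with and without it where it matters. In the H13 window, 26.8% of its sorted calls were of the DBA class. In the Impact and Snrpn windows none were, although these rest on 12 and 56 calls.

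RRBS reached a small share of each window. With at least 10 reads in at least 4 mice, 91 of the 876 reference CGs (10.4%) were measured in the H13 window, 29 of 383 (7.57%) in that of Impact and 23 of 735 (3.13%) in that of Snrpn. A CG was called intermediate when its median over the mice was between 25% and 75%. Across the genome 13.9% of measured CGs were intermediate, compared with 56.6% (81 of 143) in these windows. Runs of at least 5 intermediate CGs, with at most 2 other CGs between neighbours and no gap above 2000 bases, were joined into stretches, of which the genome held 4568 and these windows 5. In the mm9 genome these were a stretch upstream of Mcts2, 1 in the first part of Impact, 1 at the internal start of Snrpn, and 2 others in H13, named here the 5′ and the 3′ stretch.

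The Mcts2 stretch ran from chr2:152512590-152512885, within an intron of H13 and directly upstream of the Mcts2 start at 152512884, and 25 of its 26 measured CGs were intermediate. The sequence in front of Mcts2 is shown because its CGs make up the stretch. It is from the forward strand of NCBIM37 (mm9), chr2:152512584-152512883, with each CG in capitals.
Mcts2 upstream: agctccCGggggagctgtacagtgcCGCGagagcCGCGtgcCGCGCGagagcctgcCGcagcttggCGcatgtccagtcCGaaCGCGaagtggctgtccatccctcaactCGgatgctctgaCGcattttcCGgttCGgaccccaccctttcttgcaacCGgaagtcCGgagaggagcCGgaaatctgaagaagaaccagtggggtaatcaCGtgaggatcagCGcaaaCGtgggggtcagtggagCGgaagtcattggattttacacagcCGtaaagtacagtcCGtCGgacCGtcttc

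The Snrpn stretch ran from chr7:67149786-67150115 over exon 1 of transcript Snrpn-201, a 5′ UTR exon at 67149922 to 67150042, with all 10 measured CGs intermediate. The bases on both sides of this exon are shown in the direction of transcription, the reverse strand of NCBIM37, at chr7:67150043-67150115 and chr7:67149738-67149921, again with CGs in capitals. The second of them crosses the edge of the stretch.
Snrpn-201 upstream: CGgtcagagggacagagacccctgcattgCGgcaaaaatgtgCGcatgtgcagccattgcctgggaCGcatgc
Snrpn-201 first intron: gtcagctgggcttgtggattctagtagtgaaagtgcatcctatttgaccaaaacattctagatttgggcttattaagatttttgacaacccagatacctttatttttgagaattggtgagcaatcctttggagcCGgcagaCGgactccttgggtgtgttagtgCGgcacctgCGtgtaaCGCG

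The H13 5′ stretch, at chr2:152497098-152497323 in an intron close to the H13 start, is shown for contrast, since it was intermediate on both parental copies. It is given on the forward strand with CGs in capitals.
H13 first intron: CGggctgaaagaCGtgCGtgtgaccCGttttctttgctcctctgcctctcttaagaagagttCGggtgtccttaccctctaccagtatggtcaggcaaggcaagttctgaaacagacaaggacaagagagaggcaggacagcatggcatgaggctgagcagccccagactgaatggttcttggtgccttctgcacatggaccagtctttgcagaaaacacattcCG

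These stretches differed in sequence. The Mcts2 stretch had 9.8 CGs for every 100 bases and an observed to expected CG ratio of 1.09. The Impact stretch, at chr18:13131728-13132015, had 7.64 and a ratio of 0.757, and the Snrpn stretch 4.55 and 0.714. The H13 5′ and 3′ stretches were poor in CGs, at 2.65 and 1.63 for every 100 bases and ratios of 0.384 and 0.237. The hexamer TGCCGC, which the zinc finger protein ZFP57 recognises when it is methylated, was searched on both strands. It occurred 3 times in the Mcts2 stretch, 2 times in that of Snrpn, 1 time each in that of Impact and the H13 3′ stretch and not in the H13 5′ stretch. For comparison, it occurred in 11.6% of 32851 RefSeq promoters of 300 bases (GRCm38.p6) and in 15.3% of the 4563 other intermediate stretches, whose median length was 371 bases. The 3 matches in front of Mcts2 begin at 152512606, 152512622 and 152512637.

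**Figure D1:**
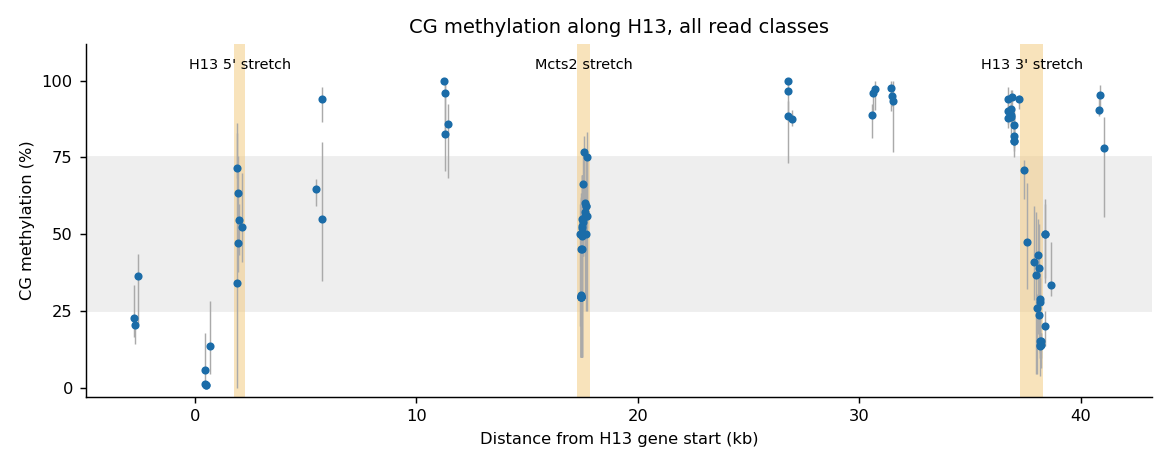
CG methylation level (%, all read classes) against distance from the H13 gene start (kb), where each point is the median over mice of 1 CG with at least 10 reads in 4 mice or more and the grey line its range; the grey band marks 25% to 75% and the orange bars the 3 stretches. Levels were near 0 to 14% just inside the gene start, mostly high between the stretches, with 64.6% at 152500672 and 55.1% at 152500920 among the exceptions, and mostly intermediate within them.

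Levels across H13 stepped several times. Upstream of the gene, the CGs at 152492440, 152492499 and 152492608 had medians of 22.6%, 20.3% and 36.2% in 8, 5 and 6 mice. In the first intron, next to the gene start, the 4 CGs from 152495663 to 152495703 had medians of 5.66%, 1.04%, 0.971% and 0.943%, and the CG at 152495892 had 13.5%. After 1206 bases without a measured CG, the 5′ stretch began at 71.6% and ended at 52.2%. The nearest measured CG beyond it, 3350 bases further at 152500672, had a median of 64.6%. The CG at 152500920 had 55.1% (34.6% to 80% in 5 mice), and the CG at 152500946 had 93.9%. From there methylation was mostly high up to the last measured CG before Mcts2, at 152506600, with 85.9% (68.4% to 92.3% in 6 mice).

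The edges of the Mcts2 stretch lay in gaps that RRBS does not read. Its first CG had a median of 50.1% (20% to 60% in 6 mice) and was 5990 bases from the highly methylated CG at 152506600, with 88 unmeasured reference CGs between them. Its last CG, at the first bases of Mcts2, had 75% (52.2% to 83.3% in 7 mice). The next measured CG was 9073 bases downstream, at 152521957 in an H13 exon, with 100% (98.3% to 100% in 6 mice), and 155 reference CGs lay between. No CG of the Mcts2 coding sequence was measured, so the ends of the imprinted stretch were not measured.

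Downstream, the body of H13 was mostly highly methylated, up to and including the first measured CGs of its 3′ UTR. An exception was the CG at 152522034, with 35.6% in the B6 female and 34.9% in the BXD male, the only mice in which it was measured. The CG at 152532397 had 93.9% (90.7% to 95.4% in 7 mice), and 226 bases further the 3′ stretch (chr2:152532623-152533360) began at 71% (61.5% to 74.2% in 8 mice). Levels were lower further along the stretch, with 27.8% at its last CG, and 6 bases further the CG at 152533365 had 13.4% (9.68% to 17.2% in 4 mice). Beyond the stretch, medians were 50% at both 152533572 and 152533593, 20% at 152533600 and 33.3% at 152533842, in 5 mice each. No read in the 3′ stretch held a SNP, so its parental origin could not be read. In the 5 kb beyond the gene, CGs at 152536041 and 152536073 were back at 90.4% and 95.5%.

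Impact had a sharp contrast but few CGs on either side. Of the 22 measured CGs of its stretch, 967 to 1253 bases into the gene in an intron, 20 were intermediate. Its first CG was at 35.7% and its last at 61.9%. The 7 other CGs measured in the window, from 13148412 to 13148628 in an intron, had a median of 96.6%, and all 7 were above 75%. The closest of these was 16398 bases from the stretch and had 98.9% (94.4% to 100% in 8 mice). On the other side no CG was measured within the window, and the nearest was 9225 bases away, at 96.7%.

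Median levels differed clearly between the ends of 1 MspI fragment of the Impact stretch. In the fragment of 155 bases at 13131728 to 13131882, the forward strand, which reads its left end, had a median of 27% and the reverse strand, which reads its right end, 51.4%, and the left end was lower in 6 of the 7 mice with both. Position and strand cannot be told apart here, because each strand reads 1 end. The other fragment of the stretch, at 13131881 to 13132015, had medians of 57% and 54.3%. Within mice, its forward strand was nevertheless lower in 4 of the 5 with both. In the H13 3′ stretch the fragment at 152532623 to 152532792 had the higher median on the forward strand, 69% against 43.9%. There the forward strand was lower in 2 of 8 mice.

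At Snrpn, 1 edge of the stretch lay between neighbouring CGs. The CG at 67149786 had a median of 50.6% (32% to 57.2% in 7 mice), and 7 bases outside the stretch the CG at 67149779 had 24.7% (7.32% to 44.6% in 7 mice). The 5 CGs from 67149738 to 67149779 had medians of 25.9%, 25.9%, 24.7%, 24.7% and 24.7%, close to the limit of 25%, and 1 further out, at 67149536, had 41.4%. With limits of 20% and 80% the stretch extended to 67149536 and held 18 intermediate CGs in place of 10. This step coincides with an MspI site, so that the CGs on its sides are largely read from different fragments. Upstream of the promoter the next measured CG was 7296 bases away, at 67157410, with 86.7% (81% to 92.9% in 5 mice).

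**Figure D2:**
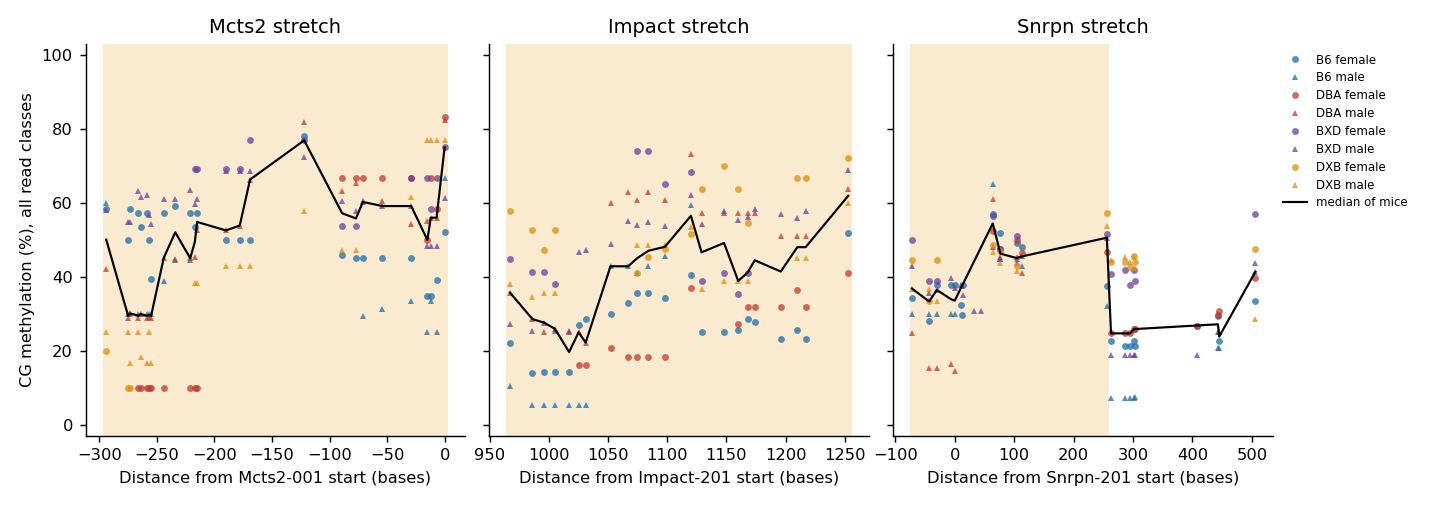
CG methylation level (%, all read classes, at least 10 reads) in each of the 8 mice against distance from the nearest transcript start (bases) at the Mcts2, Impact and Snrpn stretches; circles are females, triangles males, the black line joins medians of CGs measured in 4 mice or more, and the shaded part is the stretch. Most medians lie between 25% and 62%, and those of Snrpn go from 50.6% to 24.7% at the edge of the stretch.

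Sorted reads showed which copy carried the methylation. Reads were summed over the tagged CGs of a stretch in each F1 mouse, which uses all 4 mice, although CGs of the same read are not independent. In the Mcts2 stretch, 11 to 19 tagged CGs were read on both copies. The maternal copy had 100% methylated calls in the BXD female, 98.5% in the BXD male and 100% in both DXB mice. The paternal copy had 8.82%, 0.787%, 5.63% and 12%, in the same order. The maternal level was above the paternal level in 4 of 4 mice, and the difference of 92.8 ± 4.14 points (SD, n = 4) gave p = 0.0286 in the two-sided exact permutation test of parental origin over the 8 chromosome sets, which is the smallest p this test can give. This test, used for each stretch, treats the 8 sets as independent and not as 4 pairs, and an exact exchange within the 4 mice could not give a p below 0.125. The study had chosen H13, Impact and Snrpn from sorted reads of the same mice. The test is therefore not independent evidence for the stretches of Mcts2, Impact and Snrpn. The depth was low in most mice, with 11 maternal calls, from 1 read at each of 11 CGs, and 71 paternal calls in the DXB female, 35 and 117 in the DXB male, 53 and 34 in the BXD female and 388 and 254 in the BXD male.

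Impact behaved alike on its 5 to 9 tagged CGs. Maternal levels were 92.6% in the BXD female, 95% in the BXD male, 97.1% in the DXB female and 100% in the DXB male. Paternal levels were 18.2%, 0.971%, 0% and 1.75%. The difference was 91 ± 11.2 points (SD, n = 4; p = 0.0286 by the same exact permutation test). The paternal level of the BXD female stood above those of the other mice and rests on 55 calls, from 11 reads at each of 5 CGs. The 0% of the DXB female rests on 19 calls, from 3 or 4 reads at each CG.

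At Snrpn, 3 tagged CGs were read in every F1 mouse and 8 in the BXD male. Maternal levels were 87.5% in the BXD female, 95.7% in the BXD male and 95.2% in both DXB mice. Paternal levels were 6.67%, 1.45%, 6.06% and 0%. Depth was low outside the BXD male, with 7 or 8 maternal reads at each CG. Maternal and paternal calls numbered 24 and 30 in the BXD female. They were 21 and 33 in the DXB female and 21 and 35 in the DXB male. The difference of 89.9 ± 6.59 points (SD, n = 4) had p = 0.0286 in the exact permutation test. Maternal and paternal sets did not overlap at any of these 3 stretches.

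**Figure D3:**
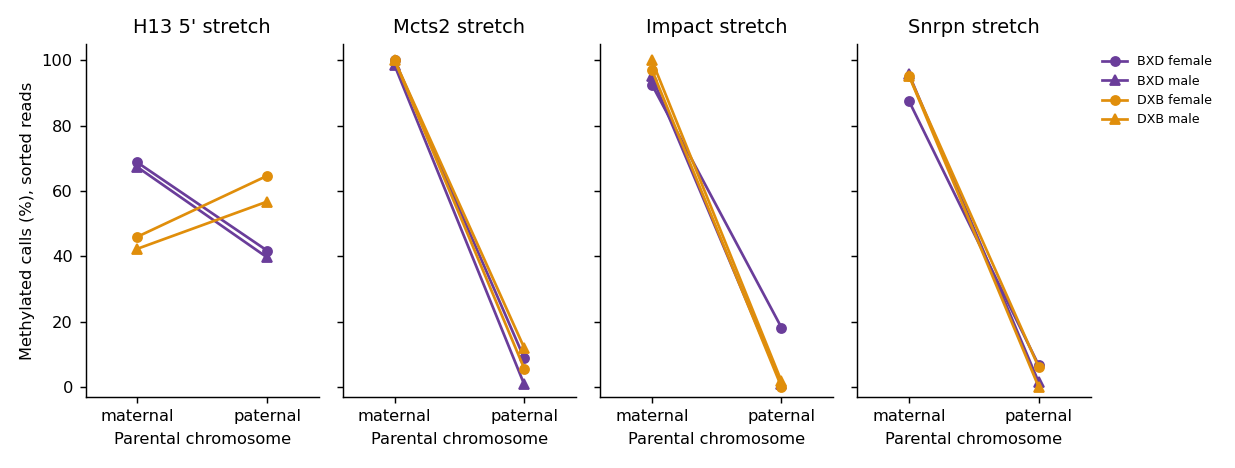
Methylated calls (%) among sorted reads, summed over the tagged CGs of each stretch, on the maternal and the paternal chromosome of each F1 mouse (lines join the 2 chromosomes of a mouse). In the Mcts2, Impact and Snrpn stretches every maternal value is at 87.5% or above and every paternal value at 18.2% or below, whereas the lines of the H13 5′ stretch cross.

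Single tagged CGs showed the same split wherever both copies were read. The maternal mean was above the paternal mean at 19 of 19 tagged cytosines of the Mcts2 stretch, 9 of 9 of Impact and 8 of 8 of Snrpn, at 5 or more sorted reads. At 16, 4 and 5 of these both copies were read in the BXD male alone, which leaves 3, 5 and 3 with both copies in more mice. Tagged cytosines of the same MspI fragment share reads, so these counts are not of independent sites. The share over all tagged cytosines of the genome is not given here. At 152512795 in the Mcts2 stretch all maternal sets were at 100% and all paternal sets at 0%, with 3 sets of each. At 67150086 in Snrpn maternal sets were at 87.5%, 93.8%, 85.7% and 100% and all 4 paternal sets at 0%. At 13131909 in Impact maternal sets lay between 97.1% and 100% and paternal sets between 0% and 18.2%. The least split tagged cytosine of the 3 stretches was 152512762, with 100% in 3 maternal sets and 8.33% to 50% in 3 paternal sets.

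The split was not seen at tagged CGs outside the stretches. Of 10 such cytosines with both copies read, all in the H13 window, 3 were higher on the maternal copy. At 6 of the 10 both copies were read in the BXD male alone. Those nearest to the Mcts2 stretch were at 152506484 and 152525747, so they cannot show where its split ends. At 152532397, the CG next to the 3′ stretch, maternal sets had a mean of 93.3% and paternal sets 96.4%. At 152536245, beyond the gene, they had 81.7% and 84.5%. Between the 5′ stretch and Mcts2, maternal and paternal means were 92.9% and 93.5% at 152500947, and both were 100% at 152506430. At 152500921 they were 43.3% and 54.7%, in 3 mice.

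Across the genome, the test of parental origin depended on the number of sorted reads required. With at least 10 reads in 3 or more sets of each parent, limma tested 13949 cytosines, of which 0 (0%) passed an adjusted p of 0.05 and 461 had an unadjusted p below 0.05. Only 7 of the tested cytosines were in these windows, all in the H13 5′ stretch or outside the stretches, since the tagged CGs of the 3 imprinted stretches rarely reached 10 sorted reads. With at least 5 reads, 18953 were tested and 10 passed (0.0528%), all higher on the maternal copy. Of these, 9 were among the 20 tested in these windows, 2 in the Mcts2 stretch, 4 in that of Impact and 3 in that of Snrpn. The study chose H13, Impact and Snrpn by a comparison of maternal and paternal reads in the same mice, so these calls are not independent evidence either.

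The 9 calls were large. At Mcts2 they were 100 points at 152512795 (SE 0.349, adjusted p = 1.25e-06, limma) and 97.6 points at 152512807 (adjusted p = 0.00176). At 152512795 the sets of each parent had an SD of 0. Its SE thus comes from the variance that limma shares across cytosines and not from a spread among mice. The sets compared there held 6 to 28 reads each. At Snrpn they were 88.7, 91.7 and 87.7 points at 67150073, 67150086 and 67150115, with adjusted p between 0.000296 and 0.00307. At Impact they were 87.6 points at 13131890, 93.2 at 13131909, 94 at 13131921 and 88.9 at 13131929, with adjusted p between 0.00307 and 0.0371. The remaining call genome-wide was 15 points in Unc80. These calls rest on few mice. Without the BXD male 0 of 12 cytosines tested in these windows passed, without the BXD female 2 of 10, without the DXB female 5 of 18 and without the DXB male 1 of 10, while 0, 2, 7 and 1 passed in the whole genome. With the mouse as a block beside origin and allele none passed, while 11 of the 20 had an unadjusted p below 0.05.

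The H13 5′ stretch was intermediate on both copies. Averaged over CGs with at least 10 sorted reads on both chromosomes, the maternal level was 68.8% in the BXD female, 72% in the BXD male, 46% in the DXB female and 42.2% in the DXB male. The paternal levels were 40.7%, 39.9%, 64.8% and 57%. The maternal copy was thus higher in both BXD mice and lower in both DXB mice, and the mean difference of 6.63 ± 27.2 points (SD, n = 4) had p = 0.514 in the two-sided exact permutation test over 8 sets. That test takes no account of strain. With origin and allele in the limma model none of its cytosines passed, while at 5 reads 152497098 and 152497114 were 10.8 and 9.1 points higher on the maternal copy (unadjusted p = 0.0469 and 0.0358, adjusted p = 0.951 for both). Both copies were thus between 39.9% and 72% in every mouse, unlike those of Mcts2.

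Sorted by strain, the B6 copy of the 5′ stretch was higher in 4 of 4 F1 mice. B6 chromosomes had 65.6 ± 6.45% and DBA chromosomes 42.2 ± 2.71% (SD, n = 4), a difference of 23.4 points. This sorting was chosen after the signs of the same 4 differences had been seen, so no exact test is given for it. Part of it came from 1 cytosine, 152497110, where 0 of 163 DBA calls in the F1 mice and 0 of 66 in the DBA female were methylated, whereas B6 sets were at 69%, 86.1%, 68.9% and 42.1%. C/T differences had been left out when SNPs were called, and a T in the DBA sequence would be read as an unmethylated C. Whether DBA carries a C at this position was not tested. Without this cytosine, B6 chromosomes had 65.6 ± 4.05% and DBA chromosomes 52.3 ± 4.04% (SD, n = 4), a difference of 13.3 points in the same direction in 4 of 4 F1 mice. The library labelled B6 male also held reads of both classes here. Its DBA reads were higher than its B6 reads at 152497098 (75.9% against 61.1%) and 152497114 (65.5% against 52.8%). They were also higher at 152497123 (51.7% against 27.8%) and 152497160 (51.7% against 34.3%). At 152497110 (0% against 50%) and 152497323 (40% against 51.4%) they were lower.

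Across the genome 9.77% of 13949 tested cytosines differed between B6 and DBA chromosomes by limma with parental origin in the model, and 7.81% were higher on B6. Of the 7 tested in these windows, 2 passed, both in the 5′ stretch and both higher on B6. They were 152497110, at -66.5 points for DBA minus B6 (adjusted p = 0.00346), and 152497114, at -23.1 points (SE 3.28, adjusted p = 0.00722). At 152497114 B6 sets were at 81%, 75%, 77.8% and 71.1% and DBA sets at 45.8%, 45.8%, 63.6% and 57.1%, without overlap. At the reverse-strand cytosine 152497323, at the other end of the stretch, the difference was -3.58 points (adjusted p = 0.821). Without the BXD female 0 of the 7 passed, and without either of the DXB mice 1 did.

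**Figure D4:**
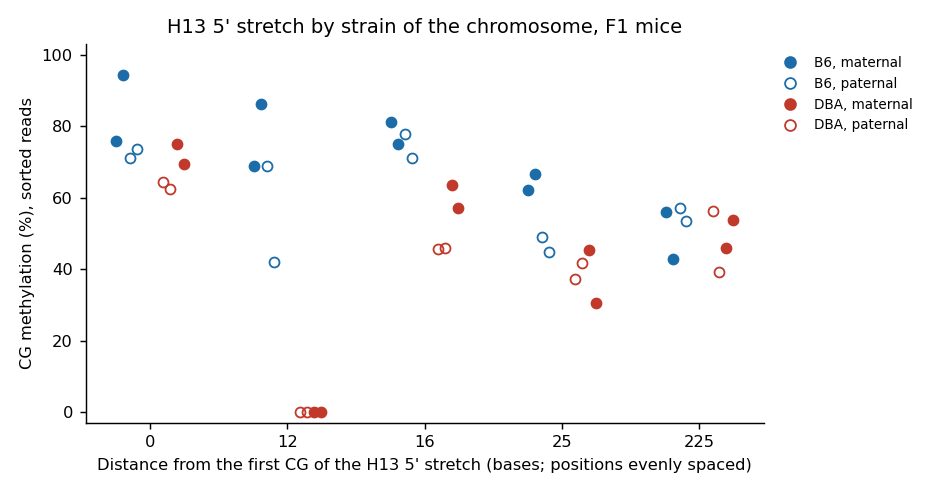
CG methylation level (%) of sorted reads at 5 cytosines of the H13 5′ stretch in the 4 F1 mice, against distance from its first CG (bases); blue is the B6 and red the DBA chromosome, filled points are maternal and open points paternal. All DBA points of the second cytosine are at 0%, and the points of the last cytosine overlap between strains.

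The parents were compared at all reads within each sex. By the rule of the study for parents, which asks for the level of each mouse to lie outside the exact 95% binomial interval of the other and for a difference above 50 points, 0.56% of 859630 cytosines were called between the B6 and DBA females, and 2 of 98 in these windows. The first was 152497110, with 83.1% in B6 and 0% in DBA. The second was 67157649 in a Snrpn intron, with 92.2% of 51 reads in B6 and 0% of 21 in DBA. Whether DBA carries the CG there was not tested either. No cytosine within the Mcts2, Impact or Snrpn stretch was called. In males 0 of 64 were called, against 0.425% of 316662 across the genome, and that comparison includes the library labelled B6 male. With a difference above 20 points, 8 cytosines in females and 5 in males were called in these windows, against 3.3% and 3.25% across the genome. Among the females these included 3 of the Mcts2 stretch with equal read numbers, at 34.8% in B6 and 66.7% in DBA with 12 DBA reads, and 1 of the Impact stretch, 13131793, at 35.6% in B6 and 13.6% in DBA. Among the males they included 4 of the Impact stretch, higher in DBA. Each side of these comparisons is 1 mouse, and the intervals cover counting error only.

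Over all 8 mice, the number of DBA genome copies was tested with sex as a covariate at 180047 CGs, of which 0.177% passed an adjusted p of 0.05 (limma). None of the 20 in these windows did, and 2 had an unadjusted p below 0.05. Without the library labelled B6 male 0 of 23 passed, against 0.105% across the genome.

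The level of all reads in the stretches varied between mice. Over the 3 CGs of the Snrpn stretch that had 10 reads in every mouse, means were 52.7% and 51.5% in the B6 female and male, 49.9% and 50.7% in DBA, 51.7% and 45.6% in BXD, and 46.2% and 44% in DXB. Their mean was 49 ± 3.28% (SD, n = 8). Over every CG that a mouse had, Snrpn lay between 31.1% and 48.6%, with an SD of 5.75 points. Over 4 such CGs of Impact, means were 36.5% and 47.3% in the B6 female and male, 22.9% and 64.5% in DBA, 70.3% and 56.2% in BXD, and 46.4% and 49.9% in DXB, with a mean of 49.2 ± 15.1% (SD, n = 8). Over every CG that a mouse had, the mean of Impact was 40.7% and the library labelled B6 male was at 24.4%. Such levels compare mice over unlike CGs. At Impact that library had 13 CGs and the B6 female 22. At Snrpn the DBA female had 5 and the BXD male 15. Over 4 CGs of the H13 3′ stretch the mean was 44.7 ± 9.18% (SD, n = 8), and it lay between 30.5% in the DBA male and 56.3% in the DXB female.

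No CG of the Mcts2 stretch reached 10 reads in all mice. Using the CGs that each mouse had, its level was 50.9% in the B6 female, 35.7% in the library labelled B6 male, 37.9% in the DBA female, 49.5% in the DBA male, 67.1% and 59.8% in the BXD female and male, and 13.3% and 42.6% in the DXB female and male. The value of the DXB female rests on 3 CGs. On the 18 CGs with at least 5 reads in all mice, the DXB female was at 29.4%, the DBA female at 25.3%, the DXB male at 41.3% and the BXD female and male at 67.8% and 58.8%. In that mouse 86.6% of the sorted calls of the stretch were from B6, the paternal copy, and in the DXB male 77%, whereas in the BXD mice 60.9% and 60.4% were from B6, the maternal copy. In the 4 F1 mice the order of the levels followed the share of sorted calls that was maternal. The sorted reads are also counted in the levels, so this order is partly built in. The part of these shares in the levels was not tested. At Impact the order was not followed over the 4 CGs. The BXD female had the lowest maternal share of the F1 mice, 32.9%, and the highest level, 70.3%. The DXB female had the highest share, 64.8%, and the lowest level, 46.4%. These shares come from forward reads of the fragment at 13131881 to 13132015. Most of the 4 CGs were read from the fragment beside it. On the forward strand of the tagged fragment, levels were 41.3%, 57%, 63.1% and 39.1% in the BXD female, BXD male, DXB female and DXB male. The shares were 32.9%, 59.5%, 64.8% and 38%, so only the BXD female and DXB male broke the order. Over every CG of Impact the DXB female was instead the highest, at 56.9%, and the BXD female was at 50.3%. At Snrpn maternal shares were 44.4% in the BXD female, 38.9% in the DXB female, 38.2% in the BXD male and 37.5% in the DXB male. Levels over its 3 CGs, read mainly from another fragment than the tagged CGs, were 51.7%, 46.2%, 45.6% and 44% in that order. Over every CG of Snrpn the BXD male, at 39.8%, was below the DXB male, at 41.8%.

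None of the comparisons of mice at these stretches passed correction. For Impact, Snrpn and the H13 3′ stretch, females were compared with males, F1 mice with parents, BXD with DXB and the DBA copies as a slope, 12 exact permutation tests in all. The H13 3′ stretch was 13.8 points higher in F1 mice than in parents (51.6 ± 4.24% against 37.8 ± 7.18%, SD, n = 4 each; exact permutation p = 0.0286, adjusted p = 0.343). That p is the smallest a comparison of 4 with 4 mice can give, and alone it could not pass correction over the 12 tests. The F1 means were above those of the parents, the closest being 46.5% in the BXD male and 46.2% in the DBA female. In sums of reads, over every CG and at 5 reads the DBA female was above the BXD male, with exact permutation p = 0.0571, 0.114 and 0.0857. At Impact F1 mice were 12.9 points higher (exact p = 0.257), and at Snrpn the difference of F1 mice minus parents was -4.34 points (exact p = 0.114). With 1 mouse left out, the Impact difference lay between 8.01 and 20.1 points. At Mcts2, which had no CG for this setting, BXD minus DXB was 35.4 points over every CG and 27.9 points at 5 reads. Its other contrasts lay between -5.44 and 8.41 points in these 2 settings, and none of them passed correction. Comparisons of 2 BXD with 2 DXB mice cannot give an exact p below 0.333, which is the value of both Mcts2 comparisons.

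A list of 46 other genes known to be imprinted was counted in the same way. The annotation held 43 of them, and 41 had at least 5 measured CGs in the gene and 5 kb on each side. A stretch was present at 26 of these (63.4%), against 15.8% of 21421 annotated autosomal genes with at least 5 measured CGs. The genes were not matched for their number of measured CGs. A stretch of at least 10 intermediate CGs was present at 18 (43.9%), against 3.29%. These are counts of genes and not of stretches, and neighbours on the list can hold the same one, such as Igf2r and Airn, both with a longest stretch of 20, or Gnas and Nespas, both with 66. The windows of H13 and Mcts2 share such a stretch, and those of Impact and Snrpn each held one, that of Snrpn with exactly 10. The stretches of Mcts2, with 25 intermediate CGs, and of Impact, with 20, were among a group of 71 of the 4568 stretches of the genome with at least 20.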

How the data were processed

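RRBS was made by the authors from liver DNA of 8 mice, and reads were aligned to mm9 with BS Seeker. The version of this tool is not given in the sources used here, nor are trimming and duplicates. Files deposited by the authors held counts of methylated and unmethylated reads and the methylation level as a fraction for each cytosine, mouse and read class (B6, DBA, without a SNP, unknown). The deposited tables of the authors' own comparisons, with mean fractions, differences and p-values, were not used, and 0 columns of other samples were present.

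Counts of all classes and of both strands of a CG were added for levels and stretches, whereas sorted reads were kept by strand. The windows, genes and alternatives were chosen with earlier results of these data known. CGs were named as the members' tagged CGs, the first and last CG of each stretch with their neighbours, and CGs past the strain threshold. 5 CGs near the Snrpn edge and those of the H13 start were named after their values were seen. Positions are those of NCBIM37 with GENCODE M1, counted from 1, and sequences come from that genome.

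Levels in percent of the chromosome sets were tested with limma 3.58.1 in R 4.3.3 with Benjamini-Hochberg adjustment over all autosomal cytosines tested. Stretches were tested by two-sided exact permutation of mice or sets. Parents were compared by exact binomial intervals. Other steps used Python 3.11.15, numpy 2.4.6, pandas 2.3.3 and scipy 1.17.1. The tests were checked on simulated data. Each read shifts the level of a CG with 10 reads by 10 points, and intervals cover counting error only, since PCR reads are not independent molecules. Each mouse is a separate animal. Read minimums, limits, models, the strands and each mouse left out were the alternatives.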

Additional observations from a re-analysis of the deposited data

Results flagged for a closer look

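The maternal level of the Snrpn stretch in the BXD female, 87.5%, stood apart below the other 3 F1 mice, which were between 95.2% and 95.7%, by Dixon's ratio for 4 values. It rests on 8 reads for each CG, so that 1 read moves a level by more than the gap. Chance sets off this ratio in about 1 of 20 groups.

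The maternal minus paternal level of the H13 5′ stretch had opposite signs in the reciprocal crosses, at 28 and 32.1 points in the BXD mice and -18.8 and -14.8 points in the DXB mice, a difference between crosses of 46.9 points. The B6 chromosome was thus higher in all 4 F1 mice, by a mean of 23.4 points, and by 13.3 points without the cytosine at 0% on DBA chromosomes. This restates the same 4 differences and is not a separate test.

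In the library labelled B6 male, 26.8% of the sorted calls in the H13 window were of the DBA class, whereas the B6 female had 0.482%. In its H13 5′ stretch 165 sorted calls were DBA and 214 were B6. The source of these reads was not tested.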

How the results depend on the processing

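The split between parents at the Mcts2, Impact and Snrpn stretches kept its direction at minimums of 1, 5 and 10 sorted reads and in sums over CGs. At 10 reads it rests on the BXD male alone, with differences of 97.8, 94.1 and 94.3 points, so that no value is left without that mouse. At 5 reads the differences were 91.5, 89.2 and 89.9 points over 3, 3 and 4 mice. With 3 mice the exact test cannot go below 0.1.

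Counts of origin calls in these windows were 0 at 10 reads under every model tried. At 5 reads they were 9 by origin alone, 8 with allele added, 3 by the unmoderated test at 1e-06, and 0 with the mouse as replicate block (the only pairing available, both chromosomes of a mouse) or by the quasi-binomial model. With 1 F1 mouse left out they lay between 0 and 5, with 0 without the BXD male, 1 without the DXB male, 2 without the BXD female and 5 without the DXB female. The minimum of 5 reads with origin alone was planned, and the other models at 5 reads were chosen after seeing the data. Strain calls were 2, and 1 with all 12 chromosome sets and strain alone in the model, and lay between 0 and 2 with 1 mouse left out. Calls between female parents were 2 of 98, against 7 of 175 at 5 reads (7361 of 1065044 in the genome), 6 of 98 above 30 points (13888 of 859630) and 8 above 20 points, and between male parents 0, against 5 above 20 points.

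The number of intermediate CGs moved with the limits. With 20% to 80% Snrpn had 18, and with 30% to 70% Mcts2 had 16 and the H13 3′ stretch 5. At 20 reads Mcts2 had 5. With reads without a strain tag alone the H13 5′ stretch had 0, as nearly all of its reads were tagged, Mcts2 12 and Snrpn 5. Leaving out a mouse gave 8 to 16 CGs at Snrpn, with 16 without the DBA female.

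The maternal minus paternal level of the H13 5′ stretch lay between -1.85 and 15.1 points with 1 mouse left out, and its B6 minus DBA level, a comparison added after seeing the data, between 20.5 and 26.3 points. The mean of Snrpn was 41.6% over every CG of a mouse and 42.3% at 5 reads, and 41.6% to 49.8% with 1 mouse left out. Some contrasts of mice, none of which passed the threshold, changed sign. At Snrpn F1 minus parents was 4.31 points over every CG and 4.51 at 5 reads (-5.95 to 3.61 with 1 mouse left out), and the slope on DBA copies 0.423 over every CG (-2.68 to 0.661). At Impact BXD minus DXB was -0.418 over every CG, females minus males -19.2 to 4.44 and the slope -4.84 to 12.2. At the H13 3′ stretch BXD minus DXB was -6.73 to 0.347 and the slope -3.83 to 6.41. The causes were not tested. Depth limits the sorted reads.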
